A study of Mus musculus with 4 samples.

Results

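The loci of the 4 myogenic regulatory factors Myog, Myod1, Myf5 and Myf6 were read in ChIP-seq of C2C12, a line of mouse myoblasts able to form myotubes. Members were the combined regions and listed peaks that overlapped 3 windows of the mouse build mm9, each holding the gene with about 50 kb on each side. The windows were chromosome 1, 136136000 to 136240000 for Myog, chromosome 7, 53581000 to 53685000 for Myod1, and chromosome 10, 106870000 to 106983000 for the neighbouring genes Myf5 and Myf6. They held 21 of the 19749 combined regions, 14 of 8872 Mef2Da1 peaks and 14 of 10105 Mef2Da2 peaks. The windows were set by position alone, so a region in one of them is near the gene and is not assigned to it.

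The cells had been kept for 5 days in medium with 2% horse serum, insulin and transferrin. Alternative splicing of the transcription factor gene Mef2d gives Mef2Da1 and Mef2Da2, and each endogenous isoform was precipitated with an antibody against its own peptide. The other groups, Mef2Da1-BLOCK and Mef2Da2-BLOCK, used the same antibodies after blocking with that peptide. Each of the 4 groups had 1 library from the same cell line, with no replicate, so every value below stands without a replicate error and no test compares conditions. ChIP-seq gives no expression values, so muscle markers could not be read as a check of the cells.

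Myod1 and Myf5 commit cells to the muscle lineage, and Myog drives differentiation. The roles of Myf6, also called Mrf4, include later development and adult fibres. All are basic helix-loop-helix proteins that bind E-boxes as dimers with E proteins. MEF2 proteins bind AT-rich sites, often beside E-boxes in muscle genes, and cooperate with these factors. The proximal promoter of Myog holds a well studied MEF2 element and E-boxes, and Myod1 is controlled by enhancers upstream of the gene.

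The Myog promoter is shown because it carries that element, while the nearest signal in the data lay away from the gene. The sequence is from RefSeq, build GRCm38.p6, plus strand, chr1:134289754-134290003, the 250 bases before the annotated start. Capitals mark the MEF2 element, CTATATTTAT, and matches to the E-box CANNTG.

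Myog promoter: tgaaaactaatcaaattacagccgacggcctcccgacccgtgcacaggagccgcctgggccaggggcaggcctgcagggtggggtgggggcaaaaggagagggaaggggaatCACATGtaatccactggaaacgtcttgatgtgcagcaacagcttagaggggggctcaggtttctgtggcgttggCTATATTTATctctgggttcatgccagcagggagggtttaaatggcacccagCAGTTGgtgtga

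The element CTATATTTAT lay 64 to 55 bases before the start, and the E-box matches CACATG and CAGTTG lay 138 to 133 and 12 to 7 bases before it. None of these matches overlapped another. The element was found as the MEF2 consensus with any last base, a form chosen after the Myog promoter had been read. Its match there was thus fixed in advance. On both strands this form was matched in 7.03% of 32851 promoters of this length, and CANNTG in 66.2%. The strict MEF2 consensus was matched in 2.92% of promoters but in neither the Myog nor the Myf5 promoter. The 250 bases before the Myf5 start held no match to any of these. A promoter was at hand for 2 of the 4 genes, and Myod1 and Myf6 had no entry. Of 20 other genes of the muscle programme, 15 had a promoter sequence and 0 of these held the strict consensus. With a match in 2.92% of all promoters, so few genes cannot show a difference. The form with any last base was not counted in these genes, so they cannot be set beside the Myog element. A match describes letters only, and no genome of the peaks' build was used, so regions could not be searched.

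The regulators differed widely in how many regions lay near them. The Myod1 window held 12 combined regions (11.5 per 100 kb) and the Myog window 8 (7.69 per 100 kb), against 0.801 per 100 kb over all chromosomes. The Myf5 and Myf6 window held 1. When all chromosomes were divided into 23684 adjoining stretches as long as the Myog window, 0.929% held at least 8 regions and 0.0971% held at least 12, the count in the equally long Myod1 window. Of 21796 stretches as long as the Myf5 and Myf6 window, 36.6% held at least 1 region and 63.4% held none. These shares describe density along the chromosomes and are not a test. Counting regions less than 500 bp apart as 1, a step chosen after seeing the data, left 10 regions at Myod1 and 8 at Myog. Windows shortened by 25 kb at each end held 7 regions at Myod1, 3 at Myog and 1 near Myf5 and Myf6.

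**Figure D1:**
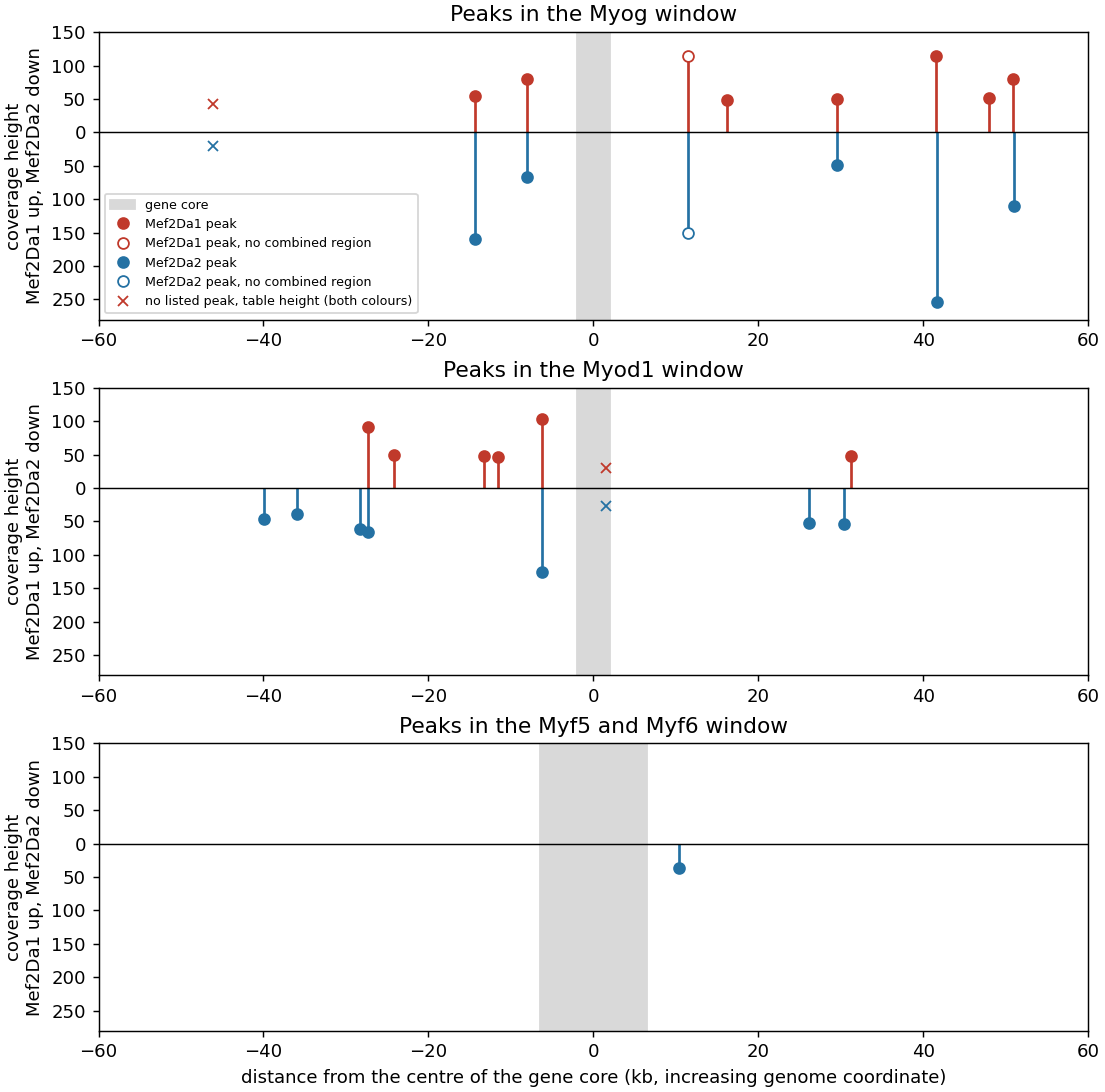
Listed peaks by distance in kb from the centre of the gene core (grey, the window without its outer 50 kb), with Mef2Da1 height upward and Mef2Da2 height downward; open circles are peaks outside every combined region and crosses are combined regions with no listed peak. Myog is flanked by peaks of both isoforms with none in its core, Myod1 has mostly peaks of 1 isoform, and the Myf5 and Myf6 window has 1 Mef2Da2 peak of height 37.

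At Myog, no listed peak and no combined region fell in the 4 kb gene core, chromosome 1, 136186000 to 136190000. Myog lies on the plus strand in the RefSeq table, so lower coordinates are upstream of it. The nearest region was 5.76 kb below the core and the nearest peak above it was 9.04 kb away. By gene order in the RefSeq table, the next protein-coding genes are Adora1 and Mybph on the lower side and Ppfia4 and Tmem183a on the higher side. Mybph encodes a myosin-binding protein of muscle and Adora1 an adenosine receptor. Which of these genes a region falls in was not determined.

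Heights are the authors' coverage heights, in whole numbers and not scaled to sequencing depth, and −log10 p is theirs too. The nearest upstream region, chromosome 1, 136179647 to 136180239, reached 80 with Mef2Da1 (control 19) and 67 with Mef2Da2 (control 17). Both isoforms had a listed peak there, at a −log10 p of 12.6 and 11.7. It was thus a site of near equal unscaled height for both isoforms. Each was about 4 times its control (4.05-fold and 3.78-fold, with 1 added to each height). With each library scaled to its total height over all regions, the log2 ratio to control was 0.69 for Mef2Da1 and 0.03 for Mef2Da2. Folds over control at single regions are unscaled here and below, unless a scaling is named.

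Farther upstream, 136173347 to 136174208 gave a Mef2Da1 height of 54 (control 16) and a Mef2Da2 height of 159 (control 17). Mef2Da2 was 8.89-fold above its control and higher there than in 97.8% of all combined regions. Mef2Da1 was 3.24-fold above its own control and higher than in 73.2%. Peaks of both isoforms were listed at this place and shared 420 bp, so the contrast was one of height and not of presence in a list. The lowest upstream region, 136141560 to 136142247, had 43 and 21 against 17 and 14, and no isoform had a listed peak there.

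Above the gene, the first signal was a pair of peaks outside every combined region. Mef2Da1 had a peak at 136199035 to 136199892 with a height of 115 and a −log10 p of 20.004, and Mef2Da2 one at 136199050 to 136199843 with a height of 150 and a −log10 p of 25.6. These were the highest Mef2Da1 peak and the third highest Mef2Da2 peak of the Myog window, ranked 532 and 540 by height in their full lists. The blocked controls could not be read there, since the table has no region at this place. Over both full lists, 5.12% of Mef2Da1 and 6.80% of Mef2Da2 peaks were outside every combined region, and in the windows it was 1 of 14 in each list (7.14%).

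The highest region near any of the 4 genes was 136229173 to 136230213, 39.2 kb above the Myog core. Mef2Da2 reached 254 there and Mef2Da1 114, against 23 in each blocked control. The Mef2Da2 height exceeded that in 99.6% of all combined regions, and its peak ranked 83 of 10105. Mef2Da1 stood above 97.2% of regions. The Mef2Da2-BLOCK height of 23 was itself above that in 95.6% of regions; its part in the result was not tested. With the blocked height in the ratio, Mef2Da2 was 10.6-fold and Mef2Da1 4.79-fold above control.

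The region 136238503 to 136239368, at the edge of the window, had 80 and 110 against 33 and 12. Its Mef2Da1-BLOCK height of 33 was the highest blocked value in the 3 windows and above that in 96.4% of all regions. Mef2Da1 was therefore only 2.38-fold above its control, where Mef2Da2 was 8.54-fold above. At 136217294 to 136217973 the isoforms were level, at 50 and 48 against 20 and 13, and both had listed peaks.

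Mef2Da1 alone had a listed peak in the remaining regions of the Myog window. At 136203889 to 136204410 the heights were 48 and 21 against 18 and 20, so Mef2Da2 was nearly level with its blocked control (1.05-fold). At 136235522 to 136236164 they were 51 and 32 against 20 and 13, and Mef2Da2 was 2.36-fold above its control without a listed peak. All Mef2Da2 peaks of the Myog window, 6 of 6, overlapped a Mef2Da1 peak, and 6 of 8 Mef2Da1 peaks overlapped a Mef2Da2 peak. Over the full lists these shares were 54.6% of Mef2Da2 and 61.6% of Mef2Da1 peaks.

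At Myod1, the regions lay mostly below the gene: 8 below the 4 kb core (chromosome 7, 53631000 to 53635000), 1 in it and 3 above. In the RefSeq gene order Otog is the next coding gene on the lower side and Kcnc1, which encodes a potassium channel, on the higher side. The region in the core, 53634418 to 53634710, was among the lowest of the windows, with 30 for Mef2Da1 and 27 for Mef2Da2 against 19 and 9. No isoform had a listed peak there.

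The highest Myod1 region lay 3.97 kb below the core, at 53626427 to 53627030. Heights were 103 for Mef2Da1 and 125 for Mef2Da2 against 18 and 19. Both isoforms had a listed peak, with a −log10 p of 17.6 and 21.1, and exceeded 96.2% and 95.6% of all regions. Here the unscaled isoform heights were close to each other, at 5.47-fold and 6.30-fold above their controls. With total scaling the log2 ratio to control was 1.12 for Mef2Da1 and 0.75 for Mef2Da2, so the order of the isoforms depended on the scaling.

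The only other Myod1 region with peaks of both, 53605401 to 53606023, had 92 and 66 against 31 and 17. The Mef2Da1-BLOCK height of 31 was above that in 93.9% of all regions, and its part was not tested. A separate region 321 bp below it, 53604260 to 53605079, had 46 and 61 against 18 and 12 and a listed peak of Mef2Da2 alone. Scaled to totals, the log2 ratio of Mef2Da1 to Mef2Da2 was 0.45 in the first and −0.43 in the second of these adjoining regions. Scaled to the totals of the blocked controls it was −0.13 and −0.9971, so the opposite signs depended on the scaling.

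Mef2Da1 alone was listed at 4 places near Myod1. The heights of Mef2Da1 were 49 at 53608045 to 53609344, 48 at 53619598 to 53619886, 47 at 53621033 to 53621622 and 48 at 53663963 to 53664400. Mef2Da2 stood at 32, 21, 28 and 31 there. The Mef2Da1-BLOCK heights were 18, 14, 11 and 9, and those of Mef2Da2-BLOCK 14, 3, 12 and 8. All 4 Mef2Da1 heights were thus near the lowest height in its full list, 42.

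Mef2Da2 alone was listed at 5 places. Besides the one at 53604260, these were 53592841 to 53593349 with 47, 53596683 to 53597298 with 39, 53658968 to 53659389 with 53 and 53663232 to 53663898 with 54. Mef2Da1 had 44, 44, 36 and 18 in these regions. Their blocked controls were 26, 24, 15 and 9 for Mef2Da1 and 9, 17, 10 and 6 for Mef2Da2. At 53596683 the unscaled heights were close, 44 and 39, and only Mef2Da2 was listed. The log2 ratio of Mef2Da1 to Mef2Da2 was 0.14 there and turned to −0.0182 with the median ratio set to 1 and −0.42 with the blocked totals. The authors' −log10 p of the region was 5.40 for Mef2Da1 and 5.95 for Mef2Da2.

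The regions at 53663232 and 53663963 were only 64 bp apart, with a listed peak of Mef2Da2 alone in the first and of Mef2Da1 alone in the second. Unscaled, Mef2Da2 was higher in the first, 54 against 18, and Mef2Da1 in the second, 48 against 31. With the blocked totals the log2 ratio of Mef2Da1 to Mef2Da2 was −2.12 in the first and 0.0216 in the second, so the isoforms were then level in the second. Both were at low blocked heights of 6 to 9. Of the Myod1 peaks, 2 of 6 in the Mef2Da1 list and 2 of 7 in the Mef2Da2 list overlapped a peak of the other isoform. The full lists had 61.6% and 54.6%, and whether so few peaks differ from them was not tested.

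The Myf5 and Myf6 window held a single region, 106936651 to 106937173 on chromosome 10, 3.65 kb above the 13 kb core that holds both genes. Heights were 43 for Mef2Da1 and 37 for Mef2Da2 against 23 and 11. Only Mef2Da2 had a listed peak, with a −log10 p of 6.21 and rank 9950 of 10105 by height. This peak was thus one of the weakest entries of its list. The −log10 p of the whole region was 5.75 for Mef2Da1 and 5.99 for Mef2Da2. The lowest listed heights were 42 for Mef2Da1 and 34 for Mef2Da2 over the full lists. Being listed therefore did not mean being the higher isoform, and the region is not shown to be particular to Mef2Da2. In the RefSeq gene order the pair is flanked by the coding genes Lin7a and Ptprq.

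This region stood alone over a long stretch. The next combined region was 1648 kb away on the lower side and 430.2 kb away on the higher side, while the median gap between neighbouring regions was 28.6 kb over 19730 gaps. Of all gaps, 1.08% were longer than the lower one and 5.28% longer than the higher one. In the 2.08 Mb between the flanking regions there was no listed Mef2Da1 peak and no listed Mef2Da2 peak other than this one. At Myog the median gap was 11.2 kb and at Myod1 3.84 kb.

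Regions just outside the windows were few. At Myod1 the nearest was 8.27 kb below the window (37 and 25 against 17 and 14) and 112.5 kb above it (43 and 28 against 19 and 14). At Myog they were 42.5 kb below (102 and 112 against 28 and 20) and 62.2 kb above (49 and 33 against 27 and 16). Order in each bracket is Mef2Da1 and Mef2Da2, then their blocked controls. Just inside, the outermost Myog region was the one at 136238503 described above.

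Over the 3 windows, 7 of 21 regions had listed peaks of both isoforms (33.3%), 6 of Mef2Da1 alone (28.6%), 6 of Mef2Da2 alone (28.6%) and 2 of neither (9.52%). Among all combined regions these classes made up 26.6%, 15.2%, 20.1% and 38.1%. Of the 14 peaks in each list, 8 overlapped a peak of the other isoform (57.1%, exact Clopper-Pearson 95% interval 28.9 to 82.3), against 61.6% of the full Mef2Da1 and 54.6% of the full Mef2Da2 list. The pooled share was thus close to that of the lists. Myog and Myod1 lay on either side of it, but with 6 to 8 peaks per list their intervals overlapped: 34.9 to 96.8 at Myog and 4.33 to 77.7 at Myod1 for Mef2Da1. For Mef2Da2 they were 54.1 to 100 and 3.67 to 71.0. Such intervals hold counting error alone and take each peak as separate. Whether the loci differ was not tested.

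Overlapping peaks were closely centred. In the 8 pairs the midpoints lay 5 to 152.5 bp apart, with a median of 20 bp. The Mef2Da1 peak was the wider in 7 of 8 pairs and the Mef2Da2 peak the higher, unscaled, in 5 of 8. Among all 5527 overlapping pairs of the full lists these shares were 73.4% and 47.0%, so the width is a trait of the lists. The widest offset, 152.5 bp, was at the highest Myog region, where the Mef2Da1 peak spanned 737 bp and the Mef2Da2 peak 502 bp.

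A −log10 p of at least 3 for an isoform without a listed peak was common. Of the 8 regions without a peak of Mef2Da1, 7 still had a −log10 p of at least 3 for it, and 5 of 8 did so for Mef2Da2. Over all combined regions without a peak of the isoform these shares were 86.5% and 79.5%, so the counts were near the background. The exception for Mef2Da1 was 53663232 at Myod1, at 1.64. Those for Mef2Da2 were 136141560 and 136203889 at Myog and 53619598 at Myod1, each with a height of 21 and a −log10 p of 2.80. In the windows the −log10 p of the blocked controls reached 4.21 for Mef2Da1-BLOCK and 2.80 for Mef2Da2-BLOCK. At 53592841 of Myod1, a region counted for Mef2Da1, Mef2Da1-BLOCK had 3.10. A value of 3 alone thus does not set Mef2Da1 apart from its blocked control.

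**Figure D2:**
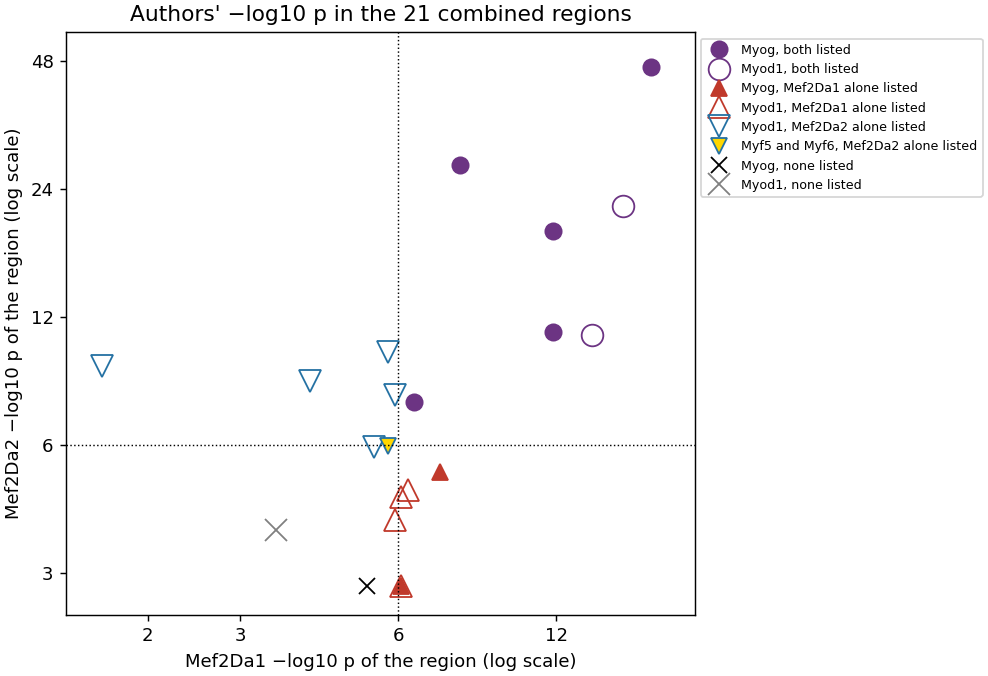
The authors' −log10 p for each of the 21 combined regions, Mef2Da1 on the horizontal and Mef2Da2 on the vertical axis (both log scales), with dotted lines at 6; symbols give the locus and which isoform had a listed peak, and a filled and an open triangle coincide at 6.09 and 2.80. The 7 regions with peaks of both isoforms lie above both lines, from 6.43 and 7.57 up to 18.2 and 46.5, and no other region does. The lowest −log10 p of a listed peak was 6.01 in both full lists, so a split near these lines follows from the listing. The region farthest from the vertical line among those with a peak of 1 isoform is at 1.64 and 9.21.

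Each isoform was then set against its peptide-blocked control, which shows signal that remains when the antibody cannot bind its target. Over the 21 regions Mef2Da1 heights ran from 18 to 114 with a median of 48, and Mef2Da1-BLOCK from 9 to 33 with a median of 18. Mef2Da2 heights ran from 21 to 254 with a median of 47, and Mef2Da2-BLOCK from 3 to 23 with a median of 13. Unscaled, every region had a higher height in the isoform than in its own control. With total scaling 11 of 21 regions were below control for Mef2Da1 and 9 for Mef2Da2, down to a log2 ratio of −1.80 for Mef2Da2 at 136203889 of Myog. That scaling makes the summed heights of isoform and control equal over the table, so part of the regions must fall below control by construction. The share below control over all regions was not computed, so these counts do not show that sites lacked signal. The ranges overlapped between regions, since the lowest isoform heights were below the highest control heights.

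Mef2Da1 was at least 2-fold above its control in 16 of 21 regions (76.2%, 95% interval 52.8 to 91.8), against 64.7% of all combined regions. Mef2Da2 was so in 19 of 21 (90.5%, 95% interval 69.6 to 98.8), against 75.0%. Both backgrounds lay within the intervals, which hold counting error alone, take each region as separate and are not a test. At Myog the counts were 8 of 8 for Mef2Da1 and 6 of 8 for Mef2Da2, and at Myod1 8 of 12 and 12 of 12. In the Myf5 and Myf6 window Mef2Da1 was 1.83-fold and Mef2Da2 3.17-fold above control.

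These counts depended on scaling, and sequencing depth is unknown. With each library scaled to its total height over the table, 2 regions remained at 2-fold for Mef2Da1 and 4 for Mef2Da2, against 7.98% and 15.8% of all regions. With the median ratio set to 1, the counts were 3 and 6, against 11.0% and 23.0%. Under both scalings Mef2Da1 was over 2-fold at 53626427 and 53663963 of Myod1, and Mef2Da2 at 136173347, 136229173 and 136238503 of Myog and 53663232 of Myod1. The median log2 ratio to control, unscaled, was 1.31 for Mef2Da1 and 1.90 for Mef2Da2 in the windows, and 1.19 and 1.63 over all regions.

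**Figure D3:**
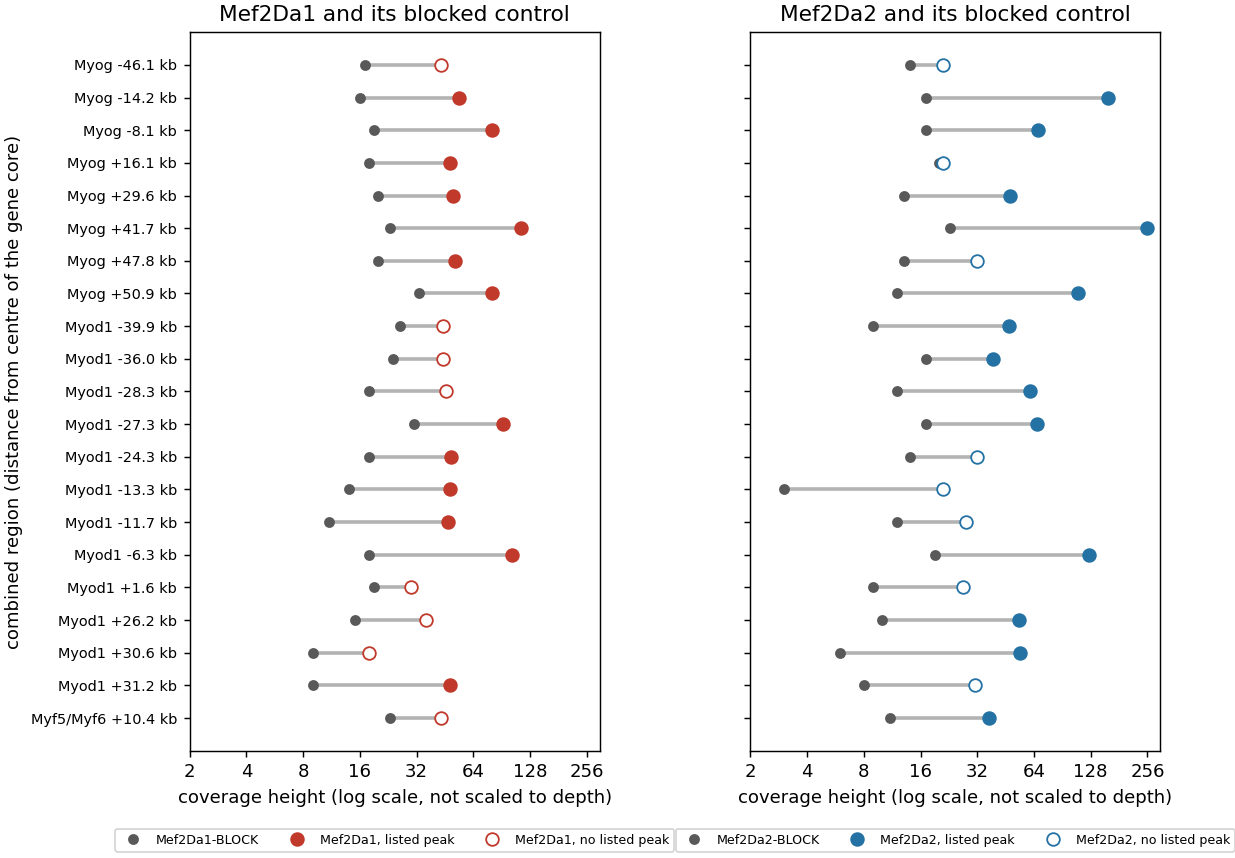
Coverage height (log scale, not scaled to depth) of each isoform (coloured, filled where it had a listed peak) and of its blocked control (grey) in the 21 combined regions, 1 row per region, named by locus and distance in kb from the centre of the gene core. The longest line is Mef2Da2 at Myog +41.7 kb, 254 against 23, and the shortest is Mef2Da2 at Myog +16.1 kb, 21 against 20.

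The isoforms were compared with each other by height after scaling to their totals. Each had its own antibody, so these ratios describe heights and cannot tell how much of each isoform was bound. The isoforms were within 2-fold in 16 of 21 regions (76.2%), against 83.4% of all regions. Mef2Da2 was over 2-fold higher in 3 regions (14.3%, against 7.03%): 2.96-fold at 136173347 and 2.26-fold at 136229173 of Myog and 2.95-fold at 53663232 of Myod1. Mef2Da1 was over 2-fold higher in 2 (9.52%, against 9.62%), 136203889 of Myog and 53619598 of Myod1, with the same heights of 48 and 21 in each. The 95% intervals of these shares, 3.05 to 36.3 and 1.17 to 30.4, held the background. These intervals take each region as separate, though neighbours lay as little as 64 bp apart, and are not a test.

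Scaling decided part of this comparison. With the median ratio over all regions set to 1, 3 regions leaned to Mef2Da2 and 0 to Mef2Da1 by over 2-fold, against 9.71% and 6.30% of all regions. Scaled to the totals of the blocked controls it was 5 and 0, against 20.2% and 1.71%. The 3 regions toward Mef2Da2 were over 2-fold under each of the scalings. The median log2 ratio of Mef2Da1 to Mef2Da2 in the windows was 0.14, against 0.17 over all regions. It turned to −0.02 with the median scaling, against 0.00 over all regions, and to −0.42 with the blocked totals, against −0.40.

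Where both isoforms had peaks, 7 regions, Mef2Da1 had a median height of 80 and Mef2Da2 one of 110. The 5247 such regions of the table had 65 and 67. In the 6 with a Mef2Da1 peak alone it was 48 and 29.5, and in the 6 with a Mef2Da2 peak alone 43.5 and 50. Over all such regions these were 51 and 28, and 34 and 49. The classes were set by peaks called in the same libraries, so the higher median of the isoform listed alone follows in part from that choice. In regions with a Mef2Da2 peak alone the gap between isoforms was narrower in the windows than over all such regions. The 6 regions cannot set this amount against an error, and it was not tested.

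**Figure D4:**
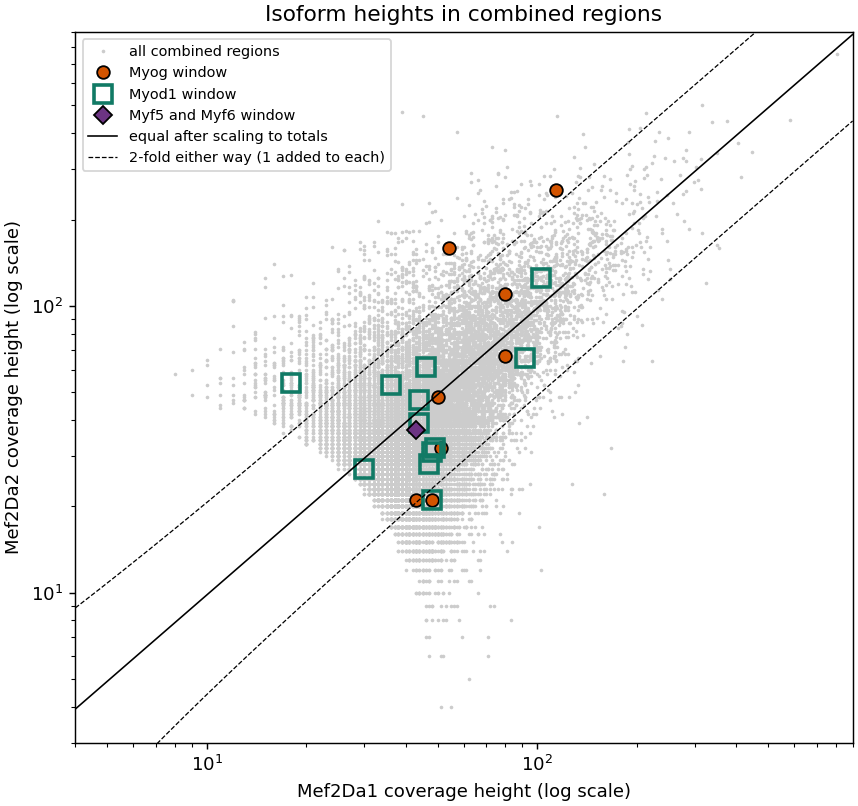
Height of Mef2Da1 (horizontal) and Mef2Da2 (vertical) in all 19749 combined regions (grey) and in the 3 windows, on log axes, with lines of equality after scaling to totals and of 2-fold difference. Of the 21 regions 16 lie between the dashed lines, and the 3 above them are 2 at Myog and 1 at Myod1; a Myog and a Myod1 point coincide at 48 and 21.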

How the data were processed

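The authors aligned reads with BWA 0.5.9 to mm9, per the submitters' processing notes. The peak caller, filters and choice of combined regions were not given in the sources used here. The deposited lists give coverage height (signal) and −log10 p per peak, and the deposited combined table gives both per region and library. The authors' −log10 p column of the blocked libraries was taken as a score as deposited, because a few of its values are negative. A table column was tied to a sample by the name that its peak list carries.

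Peaks and regions were kept where at least 1 bp lay in a window. Peak starts are 1-based and region coordinates are as given. The gene core is the window without 50 kb at each end. Ratios used a pseudocount of 1. Summed over the table, height was 973579 for Mef2Da1, 377117 for Mef2Da1-BLOCK, 955997 for Mef2Da2 and 247315 for Mef2Da2-BLOCK, and reads per library were unknown.

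All members were to be accounted for, with regions holding a listed peak, the highest regions and those in a gene core described in full. Windows, lists and scalings were chosen with earlier results of these data known, and the MEF2 consensus with any last base after reading the Myog promoter. Counts of the other genes' regions were not run, for lack of mm9 positions. Overlap and ratio code was tested on simulated data. Tables were handled with pandas 2.3.3 and NumPy 2.4.6 under Python 3.11.15, intervals came from SciPy 1.17.1, and plots were drawn with Matplotlib 3.10.9.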

Additional observations from a re-analysis of the deposited data

How the results depend on the processing

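Windows shortened by 25 kb at each end held 11 combined regions, 8 Mef2Da1 peaks and 6 Mef2Da2 peaks, in place of 21, 14 and 14, since less of the genome was read. A −log10 p of 10 or more left 6 Mef2Da1 and 7 Mef2Da2 peaks. Lengthened windows (24, 16 and 18), the midpoint rule and joined neighbours (19 regions) stayed within 1.5 times. Regions at least 2-fold above control fell from 16 to 2 (Mef2Da1) and from 19 to 4 (Mef2Da2) with total scaling, and to 3 and 6 with a median ratio of 1, by construction of the scaling. The median log2 ratio of Mef2Da1 to Mef2Da2, 0.14, was 0.17 unscaled, 0.13 with a pseudocount of 5, −0.0182 with a median ratio of 1 and −0.42 with blocked totals. Below their control lay 11 (Mef2Da1) and 9 (Mef2Da2) of 21 regions with total scaling, and 5 and 7 with a median ratio of 1. Both scalings place part of the table below control by construction, and the share over all regions was not computed. Among ratios of at least 2-fold, these changed sign. With total scaling the log2 ratio of Mef2Da1 to its control became −0.0285, −0.0451, −0.0173 and −0.0892 at 136141560, 136217294, 136235522 and 136238503 of Myog and −0.0142 and −0.10 at 53604260 and 53658968 of Myod1. For Mef2Da2 it became −0.0641 and −0.63 at 136217294 and 136235522 of Myog, −0.73, −0.73, −0.70 and −0.35 at 53596683, 53608045, 53621033 and 53634418 of Myod1, and −0.19 near Myf5 and Myf6. With a median ratio of 1 Mef2Da2 gave −0.32 at 136235522, then −0.42, −0.43, −0.40 and −0.0456 at those Myod1 regions. No paired analysis was possible because each group had 1 library. Unknown depth limits every comparison between libraries.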
